A study of Homo sapiens with 12 samples.

Results

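Cells that swell restore their volume by opening volume-regulated anion channels, which let chloride and organic osmolytes such as taurine leave. These channels are assembled from proteins of the LRRC8 family: LRRC8A (also called SWELL1) is the obligatory subunit, and it needs at least one of LRRC8B, LRRC8C, LRRC8D and LRRC8E beside it to make a working channel. The partner sets what passes: LRRC8D favours taurine and platinum drugs, LRRC8C and LRRC8E let the immune messenger cGAMP through, and LRRC8B is the partner whose role is least well defined. The members described here are all 7 probes that the array annotation assigns to these 5 genes, of 47231 probes and 20046 gene symbols in all. The family was chosen by gene name after the signal of 1 LRRC8B probe had been seen to be lower with premir miR-10b than with premir control, so the values of all members in that comparison are descriptions without a test.

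The cells are PANC-1, an established human line of pancreatic ductal adenocarcinoma, grown with 1 of 4 transfected small RNA oligos for 20 h. The groups are premir miR-10b, a synthetic precursor used to raise the level of miR-10b, its premir control oligo, antimir-10b, an inhibitor of the same small RNA, and its antimir control oligo. Each group holds 3 arrays, described by the submitters as biological triplicates, so all 12 arrays carry a transfected oligo and no array of untransfected cells was analysed here. All of it is 1 cell line, and the arrays are Illumina BeadChips, on which a probe's signal is a fluorescence intensity and a detection p says how often background probes are as bright. A log2 level below is that intensity after background correction and quantile normalization of all 12 arrays.

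On 11 arrays 39.2% to 41.3% of probes were detected (detection p under 0.05), and these arrays correlated with each other at 0.980 to 0.995. The exception was replicate 2 of premir miR-10b, where 29.5% of probes passed detection and the median correlation to the others was 0.797, so results that include it are given with 12 arrays and with the other 11. The epithelial markers KRT7, KRT8, KRT18 and KRT19 were detected on all 11 arrays. VIM, listed with them but not particular to epithelium, was detected on all 11 too. All 3 endothelial markers and 2 of 3 acinar markers were detected on none of the 12. Of the leukocyte markers PTPRC and CD3E were detected on none, while CD14 and CD68 were detected on all. Of the fibroblast markers COL1A1 was detected on all, COL1A2 on 2 arrays, DCN on 3 and LUM on none. The islet marker INS and the acinar marker CELA3A were detected on 2 arrays each, and GCG on none. The single MIR10B probe was detected on 1 array, but it reads the gene's own transcript and not the transfected oligo, so it checks nothing about the labels.

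LRRC8B and 2 other members lie side by side: in RefSeq's annotation of GRCh38.p14 LRRC8B, LRRC8C and LRRC8D follow each other on chromosome 1, while LRRC8A lies on chromosome 9 and LRRC8E on chromosome 19. RefSeq promoter windows of 300 bases (250 before to 50 after a gene's start) were found for all 5 genes, 7 windows in all. The windows of LRRC8B and of its neighbour LRRC8C are shown because of their log2 differences, premir miR-10b minus premir control. With 11 arrays this was -1.49 at LRRC8B probe ILMN_1838313, chosen for its low value, and 0.16 at LRRC8C. The other LRRC8B probe had -0.10, and with 12 arrays LRRC8C had -0.92 and the LRRC8B probes -1.16 and -0.24. Both windows are on the plus strand, at chr1:89524579-89524878 for LRRC8B and chr1:89632870-89633169 for LRRC8C. Capitals mark the CCAAT box (CCAAT or, on the other strand, ATTGG) and the GC box (GGGCGG or CCGCCC).
LRRC8B: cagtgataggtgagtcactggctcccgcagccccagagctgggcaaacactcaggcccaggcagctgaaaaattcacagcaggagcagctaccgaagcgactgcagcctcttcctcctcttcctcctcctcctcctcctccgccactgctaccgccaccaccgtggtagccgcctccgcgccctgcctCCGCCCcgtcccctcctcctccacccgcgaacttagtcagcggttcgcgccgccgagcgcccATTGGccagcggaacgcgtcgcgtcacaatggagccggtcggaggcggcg
LRRC8C: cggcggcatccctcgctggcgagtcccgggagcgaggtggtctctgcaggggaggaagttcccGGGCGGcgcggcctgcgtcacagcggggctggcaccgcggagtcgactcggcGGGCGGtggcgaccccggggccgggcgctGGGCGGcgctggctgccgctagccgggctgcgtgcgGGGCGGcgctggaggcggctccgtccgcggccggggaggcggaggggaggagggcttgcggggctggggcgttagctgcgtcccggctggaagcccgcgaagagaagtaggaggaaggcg
The LRRC8B window holds 1 CCAAT box, as ATTGG within the 50 bases after the gene's start and not before it, and 1 GC box. It has 67.3% G and C. The LRRC8C window holds 4 GC boxes and no CCAAT box, with 78% G and C, against a median of 58.7% over all windows. Among the 7 windows of the family 2 hold a CCAAT box (LRRC8B and 1 of the LRRC8D windows), 6 hold a GC box and 0 hold TATAAA or TTTATA. Of 35116 RefSeq promoter windows of this length 34.6% hold a CCAAT box, 45% a GC box and 11.5% a TATA box. The letters describe these windows only, and no reading of the arrays bears on what binds there.

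All 7 probes passed the filter on dim probes, which asked for detection on at least 3 arrays. On the 11 arrays other than premir miR-10b replicate 2 every one of the 7 was detected every time, so RNA read by at least 1 probe of each of the 5 subunit genes was above background in all 4 groups. On premir miR-10b replicate 2 the probes of LRRC8C and LRRC8D, 1 LRRC8B probe and 1 LRRC8E probe were not detected (detection p from 0.09091 to 0.86753). Levels are compared here only within a probe, since different probes bind with different strength.

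**Figure D1:**
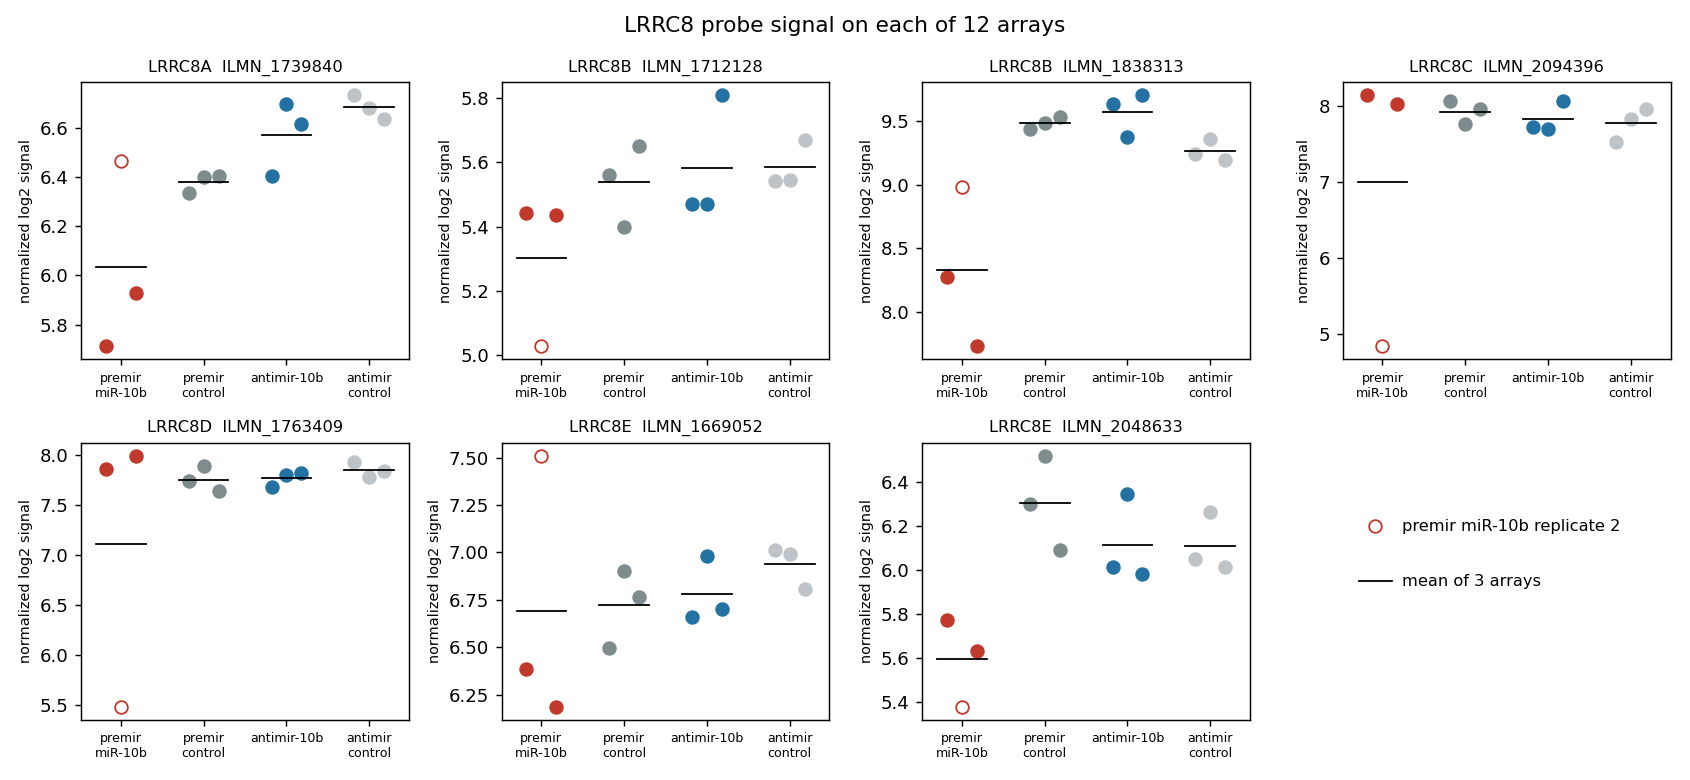
Normalized log2 signal (vertical axis, a separate range for each panel) of the 7 LRRC8 probes on each of 12 arrays, by oligo group; lines are means of 3 arrays, and the open circle is premir miR-10b replicate 2. For LRRC8B probe ILMN_1838313 the premir miR-10b arrays lie at 7.73 to 8.98 and all other arrays at 9.19 or above, while for LRRC8C and LRRC8D the open circle alone lies low.

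LRRC8A, the subunit that every channel contains, was read by probe ILMN_1739840. Its log2 level was 5.71, 6.47 and 5.93 on the premir miR-10b arrays, against 6.34, 6.40 and 6.41 on the premir control arrays. It was 6.40, 6.70 and 6.62 on the antimir-10b arrays, against 6.73, 6.68 and 6.64 on the antimir control arrays. Premir miR-10b replicates 1 and 3 held the lowest values of the 12 arrays, and replicate 2 lay above all 3 premir control arrays. The groups of the premir arm therefore overlapped with 12 arrays and did not overlap with 11. The difference was -0.35 ± 0.18 (SE) on the log2 scale with 12 arrays and -0.56 ± 0.13 with 11, where it corresponds to a 1.48-fold lower signal. Before normalization, the raw intensity was 113.4, 80.8 and 105.6 with premir miR-10b, against 147.9, 130.2 and 137.3 with premir control. On this scale the 2 groups do not overlap with replicate 2 included, but that array was dim as a whole. The 95th percentile of its raw intensities was 733.1, against 1188.2 on the next lowest array.

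LRRC8B has 2 probes on the array, and they differed. Probe ILMN_1838313, which the annotation assigns to a cDNA record and not to the gene's RefSeq transcript, is the one that drew attention. Its log2 level was 8.27, 8.98 and 7.73 with premir miR-10b, against 9.44, 9.49 and 9.54 with premir control. It was 9.63, 9.37 and 9.71 with antimir-10b, against 9.24, 9.36 and 9.19 with antimir control. The 3 premir miR-10b arrays were the lowest of the 12, replicate 2 included, and the premir control arrays lay close together. The difference was -1.16 ± 0.26 (SE) with 12 arrays, a 2.24-fold lower signal, and -1.49 ± 0.16 with 11, a 2.81-fold lower signal. In bulk RNA, fewer cells carrying a transcript and less of it per cell cannot be told apart, here or in any later comparison.

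The same order is seen without normalization. Raw intensity of this LRRC8B probe was 476.4, 242.8 and 242.2 with premir miR-10b, against 911.0, 733.1 and 837.3 with premir control. The authors' scaled values were 441.4, 271.0 and 244.3 with premir miR-10b, against 858.8, 753.7 and 836.3 with premir control. Replicates 2 and 3 had nearly the same raw intensity, yet their log2 levels were 8.98 and 7.73, as quantile normalization gives 1 raw intensity different levels on arrays of different brightness. The value from replicate 2 depends in this way on the scaling. It lay below the premir control values on each of these scales, but that array was dim as a whole. LRRC8A on it was below the premir control arrays in raw intensity and in the authors' scaled values, yet above them after normalization. A low raw or scaled value on replicate 2 is therefore no separate support.

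By group, the mean log2 level of LRRC8B probe ILMN_1838313 was 8.33 ± 0.63 (SD, n = 3) with premir miR-10b, 9.26 ± 0.09 (SD, n = 3) with antimir control, 9.49 ± 0.05 (SD, n = 3) with premir control and 9.57 ± 0.18 (SD, n = 3) with antimir-10b. Of the neighbours in this order, premir control and antimir-10b overlapped, and the other pairs did not.

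Probe ILMN_1712128, assigned to the RefSeq transcript of LRRC8B, read 5.44, 5.03 and 5.44 with premir miR-10b, against 5.56, 5.40 and 5.65 with premir control. It read 5.47, 5.47 and 5.81 with antimir-10b, against 5.54, 5.54 and 5.67 with antimir control. These values are close to the background of the arrays, with raw intensities from 80.2 to 98.3 on the 11 arrays, where the median of all probes on an array lay between 64.5 and 76.3. The groups of the premir arm overlapped, and the difference was -0.24 ± 0.16 (SE) with 12 arrays and -0.10 ± 0.14 with 11.

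The LRRC8B probes thus gave different premir differences with 11 arrays, -1.49 ± 0.16 (SE) at ILMN_1838313 and -0.10 ± 0.14 at ILMN_1712128. Their levels correlated at r = 0.45 over 11 arrays, as a description. Premir miR-10b replicate 2 adds little here, since ILMN_1712128 was not above background on it (detection p 0.55065). Whether the 2 probes read different transcripts of LRRC8B was not tested, and neither was the part that low signal at ILMN_1712128 plays.

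LRRC8C, which with LRRC8E passes cGAMP, gave log2 levels of 8.15, 4.84 and 8.02 with premir miR-10b, against 8.07, 7.76 and 7.96 with premir control. They were 7.73, 7.69 and 8.07 with antimir-10b, against 7.52, 7.84 and 7.96 with antimir control. Only replicate 2 of premir miR-10b was low, at a raw intensity of 45.4 that was not above background, and the groups overlapped. The difference turned direction with that array: -0.92 ± 0.69 (SE) with 12 arrays and 0.16 ± 0.16 with 11.

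LRRC8D, the taurine and platinum drug subunit, behaved in the same way. Its log2 levels were 7.86, 5.48 and 7.99 with premir miR-10b, against 7.74, 7.89 and 7.64 with premir control. They were 7.68, 7.80 and 7.82 with antimir-10b, against 7.93, 7.78 and 7.84 with antimir control. Replicate 2 of premir miR-10b was again alone in being low, and replicates 1 and 3 lay at the top of the premir control range or above it. The difference was -0.64 ± 0.52 (SE) with 12 arrays and 0.17 ± 0.13 with 11.

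LRRC8E, the last of the partners, was read by probes ILMN_1669052 and ILMN_2048633, both assigned to the same RefSeq transcript. Probe ILMN_2048633 gave 5.77, 5.37 and 5.63 with premir miR-10b, against 6.30, 6.52 and 6.09 with premir control. It gave 6.01, 6.34 and 5.98 with antimir-10b, against 6.05, 6.26 and 6.01 with antimir control. The 3 premir miR-10b arrays were its lowest, with no overlap, and the difference was -0.71 ± 0.17 (SE) with 12 arrays and -0.60 ± 0.16 with 11. On premir miR-10b replicate 2 this probe was not above background (detection p 0.12727). Its raw intensities on the 11 arrays were low, from 94.3 to 145.3. In raw intensity the gap was narrow, with premir miR-10b replicate 1 at 117.5 and premir control replicate 3 at 118.6.

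Probe ILMN_1669052 of LRRC8E gave 6.38, 7.51 and 6.18 with premir miR-10b, against 6.50, 6.90 and 6.77 with premir control. It gave 6.66, 6.98 and 6.70 with antimir-10b, against 7.01, 6.99 and 6.81 with antimir control. Replicates 1 and 3 of premir miR-10b were its 2 lowest arrays and replicate 2 its highest, so the groups overlapped with 12 arrays and not with 11. The difference was -0.03 ± 0.30 (SE) with 12 arrays and -0.44 ± 0.15 with 11. In raw intensity replicate 1, at 162.4, lay inside the premir control range of 160.0 to 164.7. The LRRC8E probes correlated at r = 0.70 over 11 arrays and at r = -0.03 once premir miR-10b replicate 2 was included.

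**Figure D2:**
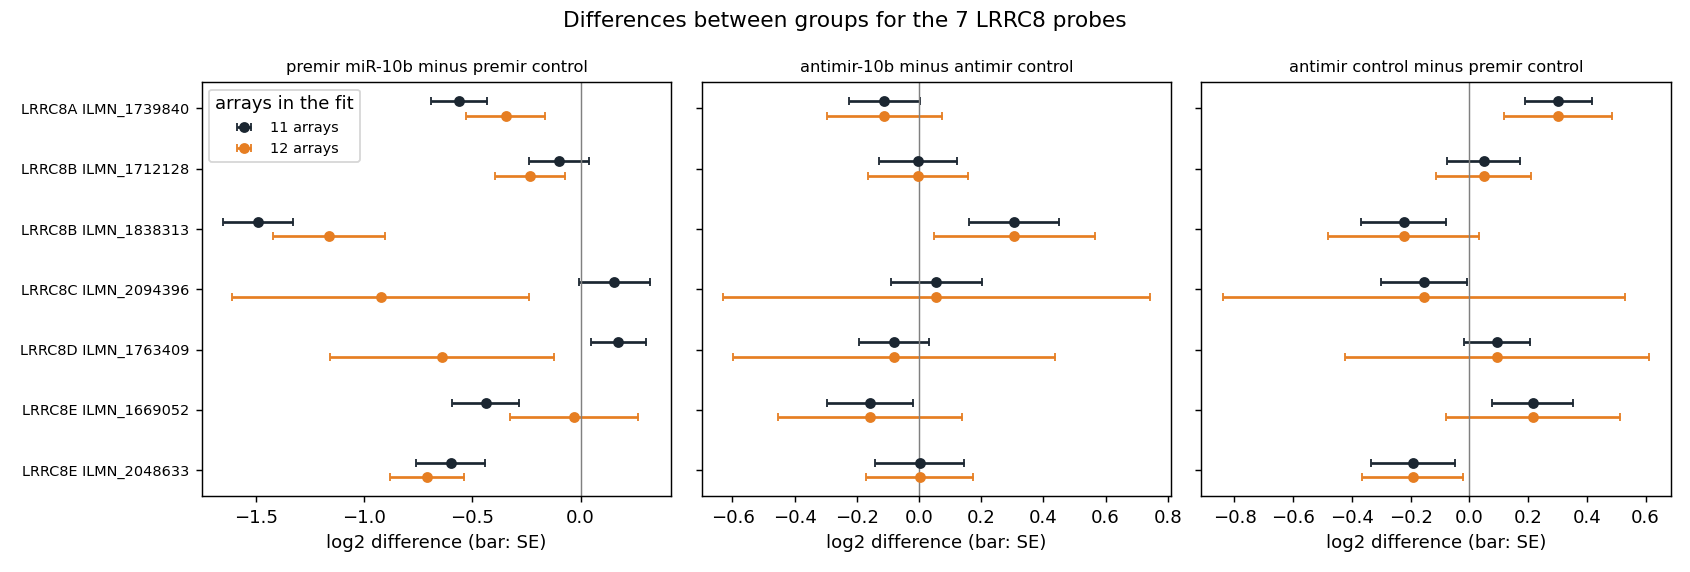
Log2 differences of the 7 LRRC8 probes in 3 comparisons (horizontal axes, a separate range in each panel), with 11 arrays in dark blue and with all 12 in orange; bars are standard errors. LRRC8B probe ILMN_1838313 lies at -1.49 and -1.16 in the premir panel, LRRC8C and LRRC8D change sign between the fits there, and differences in the other panels lie between -0.22 and 0.31.

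Across the family, the premir miR-10b arrays did not overlap the premir control arrays, on the lower side, for 2 of 7 probes with 12 arrays (LRRC8B ILMN_1838313 and LRRC8E ILMN_2048633), where 5.73% of the 21195 probes tested did the same. With 11 arrays it was 4 of 7 probes, in the genes LRRC8A, LRRC8B and LRRC8E, where 9.84% of all probes did the same. No LRRC8 probe lay apart on the higher side in either fit, against 5.65% and 9.81% of all probes. At a limma adjusted p under 0.05 no LRRC8 probe was called with 12 arrays, where 0.109% of all probes were, and LRRC8B ILMN_1838313 alone was called with 11, where 0.637% were. This comparison chose the family through that probe, so these counts are no test of it: they stand beside the background as a description and nothing is read from them. The median difference of the 7 probes was -0.64 with 12 arrays and -0.44 with 11, against 0.02 and 0.00 over all probes tested. These medians include the chosen probe, and LRRC8B and LRRC8E enter with 2 probes each. The median with 12 arrays is the value of LRRC8D, which had 0.17 with 11 arrays, so no shift of the whole family is read from them.

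The antimir arm, in which antimir-10b is set against its own control oligo, shares no array with the comparison that chose the family. None of the 7 probes was called there, with 12 or with 11 arrays (limma, adjusted p under 0.05), and over all 21195 probes the share called was 0%. At an unadjusted p under 0.05 it was 0 of the 7 probes in both fits, against 0.264% of all probes with 12 arrays and 2.26% with 11. The differences lay between -0.16 and 0.31, with a median of 0.00, which is also the median over all probes.

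The LRRC8B probe ILMN_1838313 had the highest of these differences, 0.31 or 1.24-fold higher with antimir-10b. Its 95% interval ran from -0.26 to 0.88 with 12 arrays, and the limma p was 0.26 before adjustment and 1.00 after it. With 11 arrays the unadjusted limma p was 0.0531 and the adjusted p 0.999. With the 6 arrays of this arm alone the limma p was 0.0327 and the adjusted p 0.995. The antimir-10b arrays all lay above the antimir control arrays, though by a gap as narrow as 9.37 against 9.36. This was the only LRRC8 probe that did so, where 4.64% of all probes did, and no LRRC8 probe lay apart on the lower side, where 4.09% did.

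LRRC8A had a difference of -0.11 ± 0.12 (SE) with 11 arrays in the antimir arm, and its groups overlapped. LRRC8C had 0.06 ± 0.15, LRRC8D -0.08 ± 0.11, and the LRRC8B probe ILMN_1712128 0.00 ± 0.12. The LRRC8E probes had -0.16 ± 0.14 at ILMN_1669052 and 0.00 ± 0.14 at ILMN_2048633. With 11 arrays the 95% intervals of these 6 probes all held 0, with ends between -0.45 and 0.37. With 12 arrays the intervals were wider: the interval of LRRC8C ran from -1.46 to 1.57 and that of LRRC8D from -1.23 to 1.07, since the 1 low array enters the shared estimate of the spread. Intervals that hold 0 do not show that the levels were alike.

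The control oligos were also set against each other, antimir control minus premir control, which shows how far the family moves between arms without any miR-10b oligo. This comparison shares the premir control arrays with the one that chose the family. No LRRC8 probe was called with 12 or 11 arrays (limma, adjusted p under 0.05), against 0.0189% and 0.189% of all probes. At an unadjusted p under 0.05 it was 0 of 7 with 12 arrays and 1 of 7 with 11, against 1.88% and 9.92% of all probes.

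That 1 was LRRC8A, which was higher with antimir control, at 6.73, 6.68 and 6.64 against 6.34, 6.40 and 6.41 with premir control. The groups did not overlap, which 10.3% of all probes also showed, and the difference of 0.30 ± 0.12 (SE) had a limma p of 0.0205 and an adjusted p of 0.426 with 11 arrays, and a limma p of 0.128 and an adjusted p of 1.00 with 12. The LRRC8B probe ILMN_1838313 was the only one of the family whose antimir control arrays all lay below the premir control arrays, which 9.25% of all probes showed. Its difference was -0.22 ± 0.14 (SE), with a limma adjusted p of 0.604 with 11 arrays. The other 5 probes had differences from -0.19 to 0.22.

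The pattern of LRRC8B probe ILMN_1838313 over the 11 arrays was set beside that of 11724 other genes, each by the detected probe of highest mean. SS18L2 was the most alike, with a Pearson correlation of 0.98. It was followed by ISCA2, which takes part in mitochondrial iron-sulfur cluster assembly (r = 0.98), and by SCARB2, a lysosomal membrane protein that carries glucocerebrosidase to lysosomes (r = 0.98). SUMF1, the enzyme that activates sulfatases, and CRLF3 both reached r = 0.97. These correlations are descriptions over arrays that share processing, and they lean on the 2 premir miR-10b arrays: over the other 9 arrays they were 0.90, 0.66, 0.61, 0.60 and 0.66 in the same order.

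All 5 were lower on premir miR-10b replicates 1 and 3, which follows from how they were picked, by likeness to a probe that is low there. SCARB2 read 9.58 and 9.27 there, against 10.69, 10.88 and 10.65 with premir control. CRLF3 read 7.18 and 5.87, against 8.89, 8.51 and 8.61 with premir control. On replicate 2 they parted: SCARB2 (10.03), SUMF1 (6.31) and CRLF3 (5.50) were below the premir control arrays, as LRRC8B was, while SS18L2 (11.77) and ISCA2 (7.89) were above them.

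The other family members were spread over the ranking. LRRC8A stood at rank 220 of 11724 with r = 0.76, and LRRC8E, by probe ILMN_1669052, at rank 321 with r = 0.71. The other LRRC8E probe was not ranked. LRRC8C stood at rank 10002 with r = -0.37, and LRRC8D at rank 11495 with r = -0.66. Over the 9 arrays without premir miR-10b the correlation with LRRC8B was -0.51 for LRRC8A and -0.52 for LRRC8E probe ILMN_1669052, the opposite sign. The likeness of these members therefore also rests on the 2 premir miR-10b arrays.

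**Figure D3:**
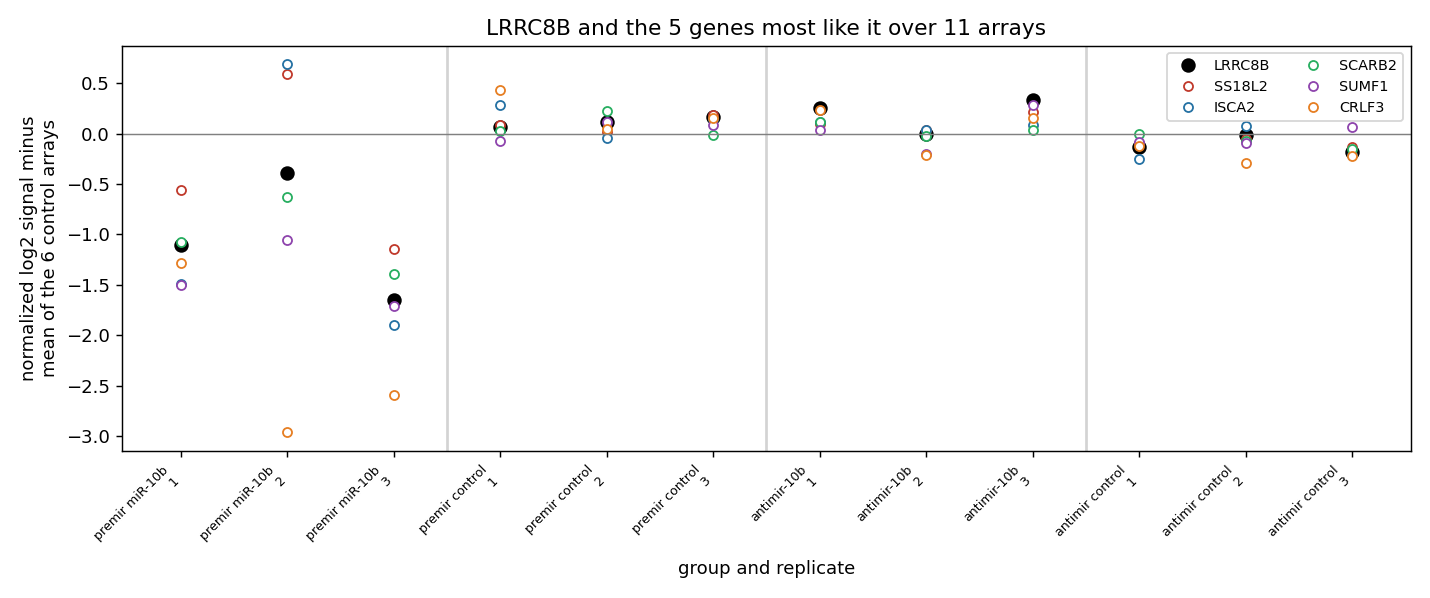
Normalized log2 signal minus the mean of the 6 control arrays (vertical axis) on each of 12 arrays for LRRC8B probe ILMN_1838313 (black) and the 5 genes most like it over 11 arrays. All 6 lie low on premir miR-10b replicates 1 and 3, which follows from the choice of the probe and the ranking. On replicate 2, which the ranking left out, SS18L2 and ISCA2 lie above the control mean and the others below it.

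The coding genes on either side of the chromosome 1 group were read as well. GBP6, before LRRC8B, has 2 probes and neither passed the filter. ZNF326, after LRRC8D, had a premir difference of -0.30 with 12 arrays and 0.02 with 11, and an antimir difference of 0.06. With 11 arrays the premir difference was 0.16 for LRRC8C and 0.17 for LRRC8D, against -1.49 and -0.10 at the LRRC8B probes. The first of these LRRC8B probes was chosen for its low value. With 12 arrays LRRC8C (-0.92) and LRRC8D (-0.64) were below 0 too, as ZNF326 was, so no trait particular to LRRC8B is read from this stretch.

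A list of 59 genes, named volume regulation genes below for short, was set beside the family. It holds genes of cell volume control: the WNK kinases and the cotransporters they regulate, ion exchangers and channels, aquaporins and osmolyte transporters. It also holds pannexins, the cGAMP pathway and copper transporters linked to platinum drug uptake, listed for their ties to LRRC8 rather than volume control. Of the 59 genes 37 were measured, among them 2 pannexins, 6 genes of the cGAMP pathway and 4 copper transporters. None was called in any of the 3 comparisons, with 12 or with 11 arrays (limma, adjusted p under 0.05). At an unadjusted p under 0.05 it was 6 of 37 in the premir arm with 12 arrays and 5 with 11, against 7.97% and 7.71% of all probes. In the antimir arm it was 0 and 1 of 37, against 0.264% and 2.26% of all probes, and between the control oligos 1 and 8 of 37, against 1.88% and 9.92%.

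In the premir arm the median difference of the 37 genes was -0.05 with 12 arrays and -0.03 with 11. The antimir-10b arrays lay all above the antimir control arrays for 2 of the 37 genes and all below for 3, against 4.64% and 4.09% of all probes. With 11 arrays the premir miR-10b arrays lay all above the premir control arrays for 2 genes and all below for 5, against 9.81% and 9.84% of all probes. Between the control oligos, the antimir control arrays lay all above the premir control arrays for 3 genes and all below for 8, against 10.3% and 9.25%. The median difference of the 37 genes there was -0.10, against 0.01 over all probes tested.

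The largest premir differences with 12 arrays were those of PANX1, a channel that releases ATP (-1.22), SLC4A2, a chloride-bicarbonate exchanger (-1.06), and SLC12A2, the sodium-potassium-chloride cotransporter NKCC1 (-1.04). With 11 arrays they were -0.36 for PANX1, -0.02 for SLC4A2 and -0.35 for SLC12A2. Each of the 3 has a low value on replicate 2: PANX1 read 7.91, 5.26 and 7.73 with premir miR-10b, against 8.17, 8.20 and 8.17 with premir control. The other SLC12A2 probe had a difference of 1.00 with 12 arrays, opposite in sign, and 0.09 with 11. With 11 arrays the largest were HSPA4L, an osmotic stress chaperone (-0.71), ATP7A, a copper pump (-0.51), and SLC6A6, the taurine transporter (0.47), none of them called. With 12 arrays they were -0.66 for HSPA4L, -0.83 for ATP7A and 1.03 for SLC6A6. Some of these genes also differed between the control oligos. Antimir control minus premir control was -0.35 for HSPA4L, -0.43 for ATP7A, -0.41 for SLC12A2, -0.35 for PANX1 and 0.01 for SLC4A2, none called.

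SLC6A6, which brings in the taurine that LRRC8D channels release, read 7.31, 9.12 and 7.54 with premir miR-10b, against 6.67, 7.26 and 6.94 with premir control. It read 7.45, 7.49 and 7.06 with antimir-10b, against 7.83, 7.57 and 7.70 with antimir control. The groups did not overlap in either arm, higher with premir miR-10b and lower with antimir-10b. The premir difference was 1.03 ± 0.39 (SE) with 12 arrays and 0.47 ± 0.18 with 11. Between the control oligos the difference, antimir control minus premir control, was 0.74 ± 0.16 (SE) with 11 arrays (limma adjusted p 0.124), above the premir difference with 11 arrays and below that with 12. In the antimir arm the difference was -0.37 ± 0.16 (SE) with 11 arrays, with a limma adjusted p of 0.999.

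**Figure D4:**
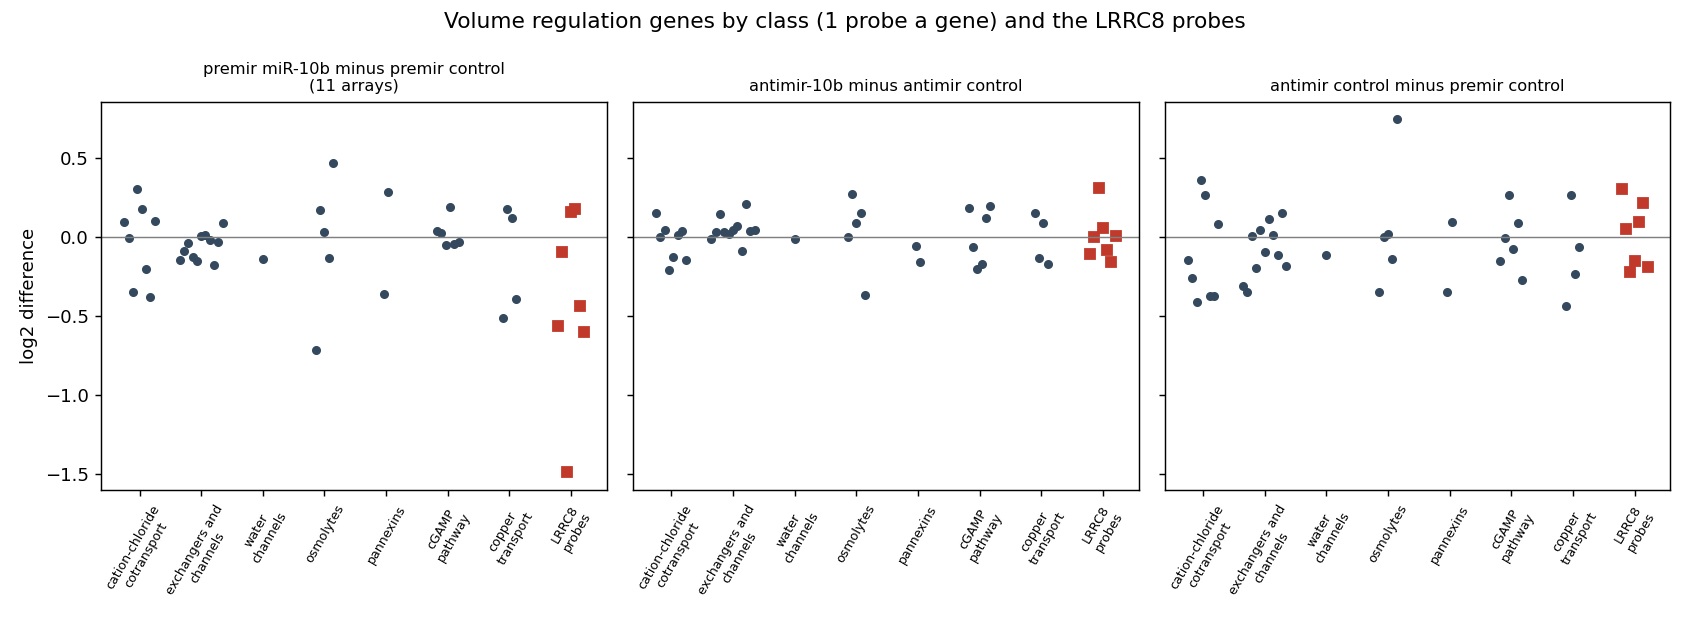
Log2 differences (vertical axis, shared) of the 37 measured volume regulation genes by class and of the 7 LRRC8 probes (red squares) in the premir arm with 11 arrays, in the antimir arm and between the control oligos. In the premir panel LRRC8B probe ILMN_1838313, chosen for its low value there, lies at -1.49 and the lowest of the 37 genes at -0.71, while with 12 arrays PANX1 (-1.22) lay below LRRC8B (-1.16). The highest point between the control oligos is SLC6A6 at 0.74.

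The premir difference of LRRC8B probe ILMN_1838313 was recomputed under 24 other settings. In 12 of these it is the same by construction, since a filter, a variance choice, the replicate block with 12 arrays or an array of the antimir arm cannot move it. In the other 12 it lay between -1.51 and -0.86, and its sign, for which the probe was chosen, is no result. The smallest difference came without premir miR-10b replicate 3, which holds the lowest level, and the largest with the replicate number as a block and premir miR-10b replicate 2 left out.

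**Figure D5:**
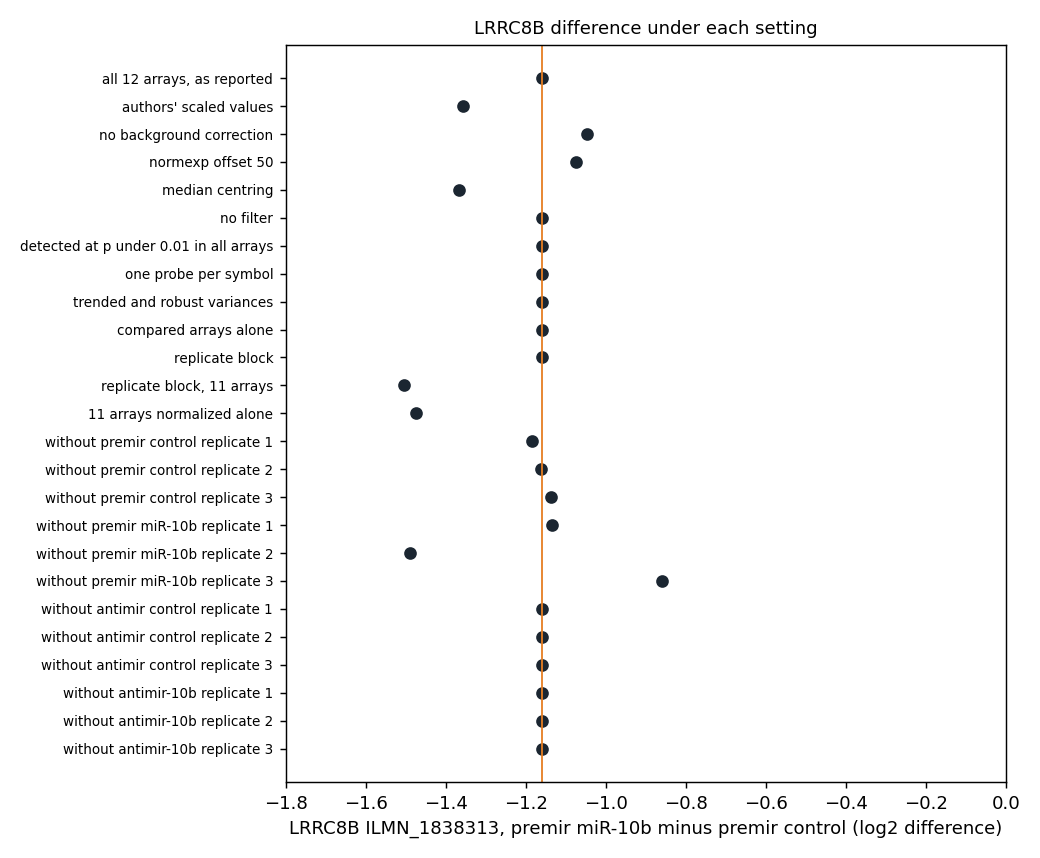
Log2 difference of LRRC8B probe ILMN_1838313, premir miR-10b minus premir control (horizontal axis), as reported and under each of 24 other settings; the orange line marks the value with all 12 arrays, -1.16. All points lie between -1.51 and -0.86, and those without premir miR-10b replicate 2 lie between -1.51 and -1.47.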

How the data were processed

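Intensities were read in 12 arrays. Per the deposited table, the authors' non-normalized values are bead signal intensity on a linear scale, with a detection p-value for each probe and array. The authors' deposited scaled values equal that intensity times 1 constant per array, a linear signal, from 0.927 to 1.12. The sources used here do not give the scanning software, the slides or a genome build.

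The intensities went into limma 3.58.1 (R 4.3.3). Its neqc function (offset 16) corrected the background, quantile-normalized the arrays and took log2. Probes with a detection p under 0.05 on at least 3 arrays were kept, 21195 of 47231. By the probe annotation supplied for the platform, 30113 probes have 1 symbol, 8 several and 17110 none. Each probe was fitted with 4 group means and moderated variances over 12 arrays, two-sided, with Benjamini-Hochberg adjustment of p-values across all probes and a call at 0.05. The fit without premir miR-10b replicate 2 kept the normalization. Groups came from the sample labels. The members and gene lists were chosen with earlier results of these data known. Genes named are all LRRC8 probes, the 5 genes most correlated with LRRC8B, the next coding gene on each side of the chromosome 1 group, and the 3 volume regulation genes with the largest difference per comparison, of which SLC12A4 and SLC4A3 in the antimir arm had -0.21 and 0.20. A volume regulation gene is given by its detected probe of highest mean. The number of arrays limits the precision, and matches to miR-10b in transcripts were not analysed here.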

Additional observations from a re-analysis of the deposited data

How the results depend on the processing

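Each value was recomputed under up to 24 other settings. The premir difference of LRRC8B probe ILMN_1838313, whose sign chose it, ran from -1.49 to -0.86 when 1 array was left out. The count of LRRC8 probes called in the premir arm was 0 with 12 arrays and became 1 with the 11 arrays normalized alone, 1 with the replicate block and 11 arrays, and from 0 to 1 when 1 array was left out, the 1 coming without premir miR-10b replicate 2. These counts, on the comparison that chose the probe, are descriptions. In the premir arm LRRC8C had 0.16 without that array and -0.92 with it, and LRRC8D 0.17 without it and -0.64 with it. The counts of LRRC8 probes and volume regulation genes called in the other comparisons were 0 under all 24. The premir difference of LRRC8E probe ILMN_2048633 was smaller, from -0.50 to -0.44, with the authors' scaled values, without background correction, with an offset of 50 and with the replicate block and 11 arrays, and as low as -0.82 when 1 array was left out. LRRC8E probe ILMN_1669052 reached 0.23 in the premir arm without premir miR-10b replicate 3.

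In the other comparisons the differences that changed sign were uncalled and near 0, and the cause was not tested. In the antimir arm LRRC8B probe ILMN_1712128 had 0.00027 with an offset of 50, 0.00028 with median centring, and -0.12 to 0.0546 when 1 array was left out. LRRC8D there had 0.034 both with the authors' scaled values and with median centring, and between the control oligos -0.0090 with the authors' scaled values. With 1 array left out LRRC8C ranged from -0.0689 to 0.149 and LRRC8E probe ILMN_2048633 from -0.113 to 0.0797 in the antimir arm, and LRRC8B probe ILMN_1712128 from -0.0199 to 0.105 between the control oligos.

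Over all probes, calls ranged from 0 to 135 in the premir arm and from 0 to 104 between the control oligos, and were 0 in the antimir arm under every setting. The fit with all 12 arrays called 23 and 4. The trended and robust variances called 2 in the premir arm and the compared arrays alone called 0. The replicate block called 1 with 12 arrays and 107 with 11, against 135 with 11 arrays and no block. A correlation was also computed for same-numbered arrays, on another measure than the log2 levels, which correlated far more highly. It was 0.20, 0.02 and 0.05 in the premir arm and 0.16, -0.08 and 0.37 in the antimir arm. Between the control oligos it was -0.09, -0.18 and 0.09. These values do not show that the numbers pair the samples, and they cannot exclude it. A block by slide was not run, since no slides are named. Probes not detected on all 12 arrays have no value under the strict detection filter, and the second probe of a gene none under 1 probe per symbol. Signals near background limit LRRC8A, LRRC8E and LRRC8B probe ILMN_1712128.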
